A study of Mus musculus with 16 samples.

Results

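The nuclear leucine tRNAs that read the CTN codons carry the anticodons AAG, CAG and TAG. They were taken by name from mim-tRNAseq count tables, leaving out mitochondrial tRNAs and the rows named tRX. This gave 10 transcripts, or isodecoders (tRNAs that share an anticodon and differ elsewhere in the sequence), in each table: 3 with AAG, 4 with CAG and 3 with TAG. The whole tables hold 819 rows for mouse embryonic fibroblasts (MEFs) and 821 rows for hearts. The study asked what follows when a pathogenic mutation of the mitochondrial tRNA-Ala gene is corrected by base editing. The MEF set held 8 libraries, 2 from each of the lines titled Cl_1, Cl_2, Cl_3 and Ctrl_1. The heart set held 8 mice of the m.5024T model, so every heart came from that model: 4 hearts titled AAV9-DdCBE and 4 titled AAV9-GFP. AAV9 is a viral vector that reaches heart muscle, DdCBE is a cytosine base editor that can act on mitochondrial DNA, and GFP is a fluorescent protein used as its control. Among the AAV9-DdCBE hearts, mice 17 and 18 carry the label 10X, mouse 25 the label 5X and mouse 26 the label 2X. Among the AAV9-GFP hearts, mice 5 and 6 carry 5X and mice 14 and 19 carry 3X. The labels do not explain Ctrl, Cl or X, and they give no genotype for the MEF lines, no promoter for the vectors and no age of the mice. The 2 libraries of a MEF line are passages of that line, so p-values of the fits by line measure the spread between passages. The permutation tests in the MEFs take each library as a unit of its own, so their p-values mix the spread between passages and between lines.

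Cytosolic leucine tRNAs have a long variable arm, a feature they share with serine tRNAs, and are charged by the leucyl-tRNA synthetase LARS1. The first base of the AAG anticodon is edited to inosine, which lets this tRNA read several codons, CTT and CTC among them. The CAG anticodon reads CTG, the leucine codon used most in mouse coding sequences, and TAG reads CTA and, by wobble, CTG. The other nuclear leucine tRNAs, with TAA or CAA, read the TTA and TTG codons. Mitochondria translate with their own leucine tRNAs, encoded in mitochondrial DNA.

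A heart library held 1540287 to 3037178 counts, 41268 to 80029 of them on the CTN readers. A MEF library held 1473330 to 4375975, with 36477 to 110906 on these tRNAs. Mitochondrial tRNAs made up 37.4% to 59.9% of a heart library, with mouse 17 the highest, and 2.14% to 3.74% of a MEF library. The tRX rows with leucine and these anticodons held 0 to 2 counts in a library. A tRNA table cannot check the labelled cell type or tissue, because it holds no defining markers. Libraries of mouse 17 and of mouse 14, an AAV9-GFP heart, stood apart in some members, and the calls that rest on them are given with and without them. Isodecoders of an anticodon can be nearly identical, and the sources used here do not say how reads shared between them were assigned. Counts were not corrected for transcript length.

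Of the 10 members, 9 passed the filter on low counts in each table. The exception in both was tRNA-Leu-CAG-3, with 0 to 2 counts in a MEF library and 0 to 8 in a heart. tRNA-Leu-CAG-4 was also rare, with 3 to 24 counts per MEF library and 37 to 129 per heart.

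The 3 anticodons together made up 2.61% ± 0.11 of nuclear counts over the 6 Cl libraries, against 2.62% for each of the Ctrl_1 libraries. The share in AAV9-DdCBE hearts was 4.96% ± 0.22, against 4.99% ± 0.23 in AAV9-GFP hearts (SD, n = 4 each). Among the 3, the CTG reader CAG took the largest part in every library, with means of 48.8% in AAV9-DdCBE hearts, 48.6% in AAV9-GFP hearts, 48.1% in Cl libraries and 48.7% in Ctrl_1. AAG came second and TAG last. Each anticodon was dominated by 1 or 2 transcripts. tRNA-Leu-AAG-1 made up 74.8% to 87.4% of AAG counts in the hearts and 70.9% to 76.2% in the MEFs. tRNA-Leu-CAG-1 and tRNA-Leu-CAG-2 made up nearly all CAG counts in both, while tRNA-Leu-CAG-4 held 0.24% to 0.33% in the hearts and 0.0093% to 0.044% in the MEFs. The anticodon whose make-up differed most to the eye was TAG. tRNA-Leu-TAG-2 held 18.7% to 25.1% of TAG counts in the hearts and 2.60% to 5.97% in the MEFs, ranges that lie apart. tRNA-Leu-TAG-1 held 34.5% to 36.8% in the hearts and 41.1% to 52.3% in the MEFs, and tRNA-Leu-TAG-3 39.6% to 46.5% and 44.5% to 53.8%. tRNA-Leu-AAG-3 held 5.80% to 15.8% of AAG counts in the hearts and 14.2% to 18.8% in the MEFs. These shares set the tables side by side without a test, since hearts and MEFs were counted in separate tables. The widest 95% Wilson interval of such a share spanned 2.24 percentage points, which covers counting error only. In tissue, fewer cells of a type and less RNA per cell cannot be told apart.

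**Figure D1:**
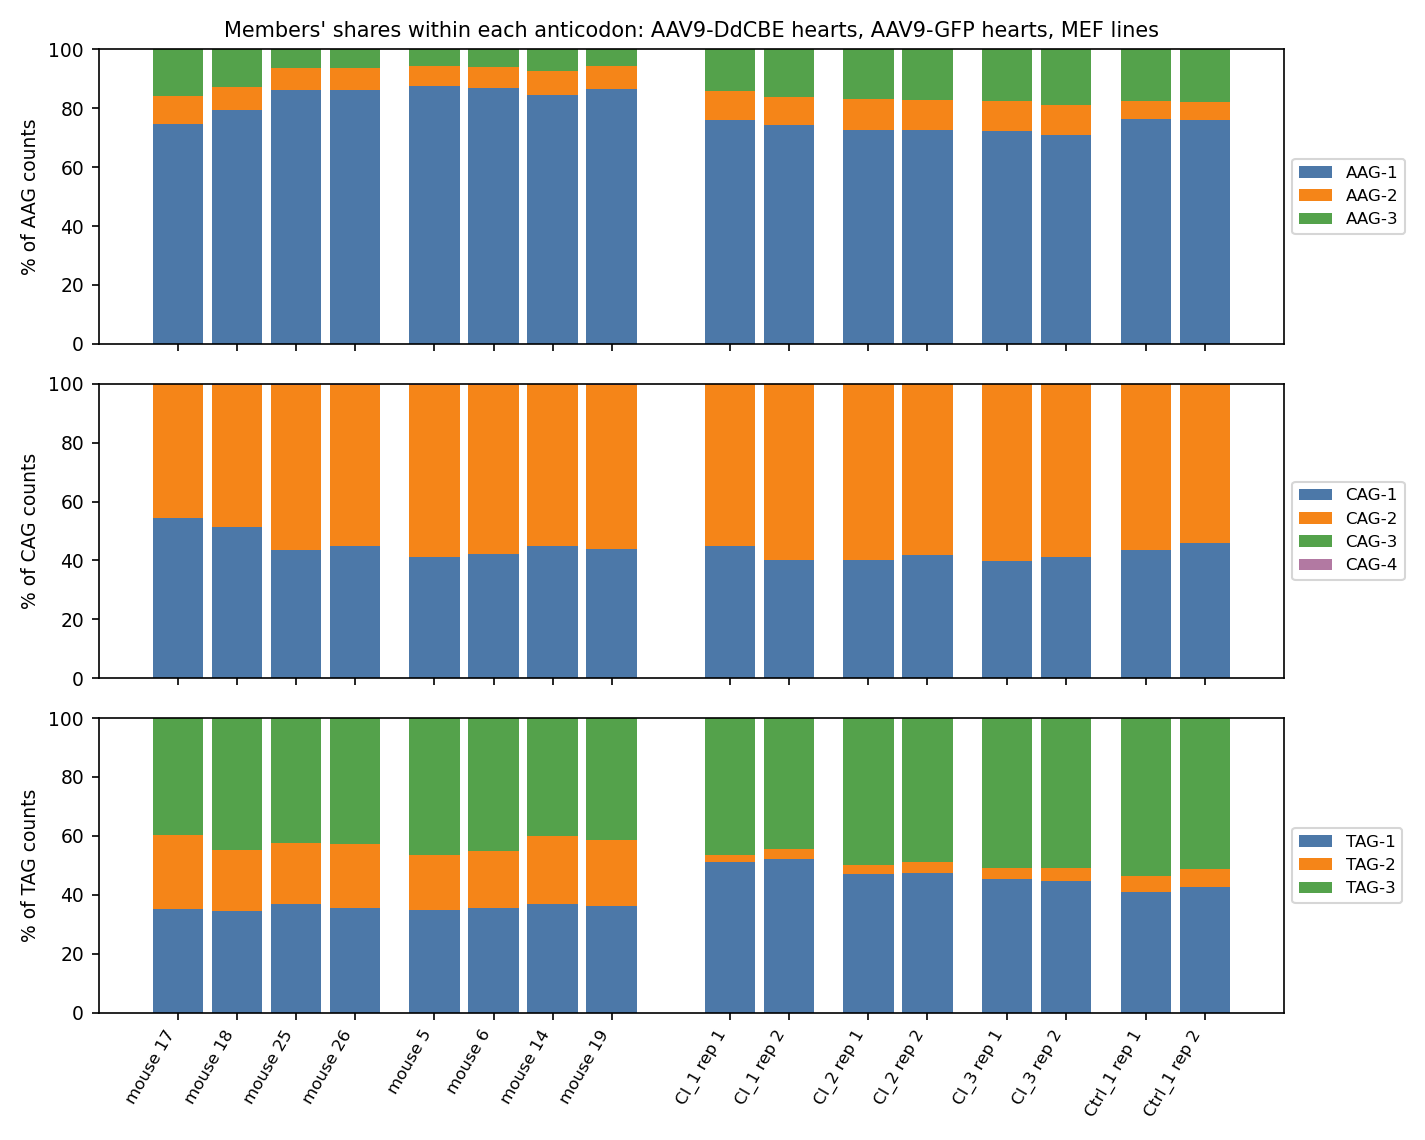
Share of each member in the counts of its anticodon (y axis, percent) for each library (x axis): AAV9-DdCBE hearts, AAV9-GFP hearts, then the MEF lines. TAG-2 fills 18.7% to 25.1% of the TAG bar in hearts and 2.60% to 5.97% in MEFs, AAG-3 is largest among hearts in mice 17 and 18, and CAG-3 and CAG-4 are too small to be seen.

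In the MEFs the members moved in both directions. In the mean of the Cl lines against Ctrl_1, 2 of the 9 tested members were higher and 4 lower (edgeR quasi-likelihood test, adjusted p under 0.05). Of the 3 anticodons, only TAG passed the same threshold as a sum, and it was higher. Over all 201 transcripts tested 22.9% were called higher and 25.4% lower, so a call on any transcript is common in these libraries. Where groups are said below to lie apart, the share of all transcripts or anticodons that also did so was not counted. The median log2 change was -0.23 over the 9 members and -0.00080 over all transcripts tested. The split between higher and lower calls depends on the scaling, since with library totals in place of TMM factors 61 transcripts were higher and 35 lower, against 46 and 51. Member levels below are CPM (counts scaled to the same library size) with TMM factors of the transcript table, and anticodon totals are CPM with the factors of a table summed per anticodon. The 2 scales differ: with the anticodon factors, the median log2 change of all transcripts moves to 0.13.

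Within AAG, the minor transcript rose and the other 2 fell on the scale of the transcript fit. tRNA-Leu-AAG-2 stood at 800, 741, 844, 786, 802 and 815 CPM in the Cl libraries, in the order Cl_1 to Cl_3, against 570 and 534 CPM in Ctrl_1. All 6 Cl libraries lay above both Ctrl_1 libraries. The log2 change in the mean of the Cl lines was 0.53 (SE 0.092, with an adjusted p of 0.00304 in edgeR), or 1.45-fold, and each line was called on its own, at 0.48 in Cl_1, 0.56 in Cl_2 and 0.55 in Cl_3. As a share of AAG counts, it held 9.32% to 10.5% in the Cl libraries and 6.05% and 6.15% in Ctrl_1, a description that no scaling enters. The dominant transcript tRNA-Leu-AAG-1 stood at 6194, 5912, 5822, 5614, 5865 and 5569 CPM in the Cl libraries, against 7060 and 6706 CPM in Ctrl_1. In CPM its groups did not overlap either, and it fell by 0.24 on the log2 scale (SE 0.052, with an adjusted p of 0.00726 in edgeR). It was called in Cl_2 (-0.27) and Cl_3 (-0.27) and not in Cl_1 (-0.19). Its shares of AAG counts did overlap, at 70.9% to 76.0% in the Cl libraries and 75.9% to 76.2% in Ctrl_1. tRNA-Leu-AAG-3 stood at 1159, 1293, 1341, 1340, 1431 and 1474 CPM, against 1639 and 1593 CPM in Ctrl_1. All 6 Cl libraries were below Ctrl_1, with a fall of 0.27 (SE 0.075, with an adjusted p of 0.0186 in edgeR). This member was called in Cl_1 (-0.40) and Cl_2 (-0.27) and not in Cl_3 (-0.15). Its shares of AAG counts overlapped, at 14.2% to 18.8% in the Cl libraries and 17.7% to 18.0% in Ctrl_1. The call on tRNA-Leu-AAG-1 was lost without replicate 2 of Cl_3 (-0.22) or replicate 1 of Ctrl_1 (-0.22), and that on tRNA-Leu-AAG-3 without either Ctrl_1 library (-0.27 and -0.29). With library totals in place of TMM factors tRNA-Leu-AAG-1 was still called, at -0.14, while tRNA-Leu-AAG-3 was not (-0.17, edgeR adjusted p = 0.132). Without the filter on low counts tRNA-Leu-AAG-3 was not called either (-0.27, edgeR adjusted p = 0.0949). The calls of tRNA-Leu-AAG-1 and tRNA-Leu-AAG-3 were lost with the anticodon factors, at -0.11 and -0.14 (edgeR adjusted p = 0.158 for each), whereas tRNA-Leu-AAG-2 was called there too.

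Summed, AAG stood at 8173, 7815, 8215, 7799, 8569 and 8361 CPM in the Cl libraries, against 8633 and 8263 CPM in Ctrl_1. These groups overlap, and the total did not pass the threshold (log2 change -0.051, SE 0.042, with an adjusted p of 0.343 in edgeR). By line the means ran from Cl_3 (8465 ± 147 CPM) and Ctrl_1 (8448 ± 261) to Cl_2 (8007 ± 294) and Cl_1 (7994 ± 254, SD, n = 2 each), with neighbours closer than their spread except Ctrl_1 and Cl_2. When only nuclear rows entered the fit, the total passed as lower (-0.11, edgeR adjusted p = 0.0388). It took 0.83% ± 0.018 of nuclear counts (6 Cl libraries), against 0.89% ± 0.014 (2 Ctrl_1 libraries), lower in 6 of 6. The exact two-sided permutation test gave p = 0.0357, the smallest that 28 splits allow, and p = 0.107 adjusted over 9 shares. This test took the 2 libraries of a line as separate units. With the 4 lines as units, it allows no unadjusted p under 0.25.

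Within CAG, the Cl lines differed from each other. tRNA-Leu-CAG-1 stood at 6341 and 5554 CPM in Cl_1, 4715 and 4672 CPM in Cl_2, 4546 and 4226 CPM in Cl_3, against 5645 and 6024 CPM in Ctrl_1. Cl_2 and Cl_3 lay below both control libraries, and Cl_1 overlapped them. The fall in the mean of the Cl lines was 0.23 (SE 0.067, with an adjusted p of 0.0226 in edgeR), made of calls in Cl_2 (-0.31) and Cl_3 (-0.41) and a value of 0.028 in Cl_1 that missed the threshold. The call on the mean was lost without replicate 1 of Cl_2 (-0.22), replicate 2 of Cl_3 (-0.21), replicate 1 of Ctrl_1 (-0.29) or replicate 2 of Ctrl_1 (-0.18). It was also lost with library totals (-0.13, edgeR adjusted p = 0.122) and with the anticodon factors (-0.0999, edgeR adjusted p = 0.304). In the F test between the Cl lines this member passed (edgeR adjusted p = 0.0172). It was lower in Cl_3 than in Cl_1 (log2 difference -0.44, SE 0.083, with an adjusted p of 0.00836 in edgeR) and lower in Cl_2 than in Cl_1 (-0.34, SE 0.083, with an adjusted p of 0.0334 in edgeR). The difference between Cl_3 and Cl_2 did not pass (-0.098, edgeR adjusted p = 0.605).

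tRNA-Leu-CAG-2, the most counted CAG transcript, followed the same order of lines. It stood at 7807 and 8289 CPM in Cl_1, 6977 and 6523 CPM in Cl_2, 6849 and 6067 CPM in Cl_3, against 7276 and 7041 CPM in Ctrl_1. Cl_1 was above both control libraries, and Cl_2 and Cl_3 below them. Averaged over the lines it was close to Ctrl_1 (log2 change -0.021, SE 0.064, with an adjusted p of 0.825 in edgeR), and no line passed on its own. Between the Cl lines it passed (F test, edgeR adjusted p = 0.0436), with Cl_3 lower than Cl_1 by a log2 difference of -0.32 (SE 0.079, with an adjusted p of 0.0258 in edgeR). These were the 2 of 9 members that differed between the Cl lines, where 24.4% of the 201 transcripts did. The F test for tRNA-Leu-CAG-2 was lost when any of the libraries except replicate 1 of Cl_3 was left out, and that for tRNA-Leu-CAG-1 when replicate 1 of Cl_1, replicate 1 of Cl_2 or replicate 2 of Cl_3 was. The edgeR adjusted p then reached 0.135 for tRNA-Leu-CAG-2 and 0.0784 for tRNA-Leu-CAG-1.

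Summed, CAG stood at 14190 and 13620 CPM in Cl_1, 12000 and 11280 CPM in Cl_2, 12060 and 10960 CPM in Cl_3, against 12040 and 12230 CPM in Ctrl_1. Cl_1 was the highest of the lines, and the other 3 lay within their spread of each other. The total was called higher in Cl_1 (log2 change 0.20, SE 0.058, with an adjusted p of 0.0357 in edgeR) but not in Cl_2 (-0.060), Cl_3 (-0.076) or the mean (0.020, SE 0.048, with an adjusted p of 0.703 in edgeR). The F test between the Cl lines did not pass for this total (edgeR adjusted p = 0.0631). It took 1.26% ± 0.13 of nuclear counts across Cl libraries, against 1.28% ± 0.034 for Ctrl_1 (p = 0.893, exact permutation). The rare tRNA-Leu-CAG-4 had 1.29 to 5.66 CPM across Cl libraries, against 5.56 and 5.70 CPM for Ctrl_1, with a log2 change of -0.59 and a wide SE of 0.38 (edgeR adjusted p = 0.244). Without replicate 1 of Cl_1, which held its highest Cl value, it passed at -1.09 (edgeR adjusted p = 0.0137).

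Within TAG, 1 abundant transcript rose, 1 rare transcript fell and the other abundant transcript gave no call. tRNA-Leu-TAG-1 stood at 2572, 2560, 2409, 2389, 2286 and 2130 CPM in the Cl libraries, from Cl_1 to Cl_3, against 1988 and 1890 CPM in Ctrl_1. All 6 Cl libraries were above Ctrl_1, with a log2 change of 0.30 (SE 0.065, with an adjusted p of 0.00726 in edgeR), called in Cl_1 (0.40) and Cl_2 (0.31) and not in Cl_3 (0.19). tRNA-Leu-TAG-2 stood at 131, 155, 160, 202, 186 and 202 CPM, against 250 and 264 CPM in Ctrl_1. All 6 were below, and it fell by 0.59 (SE 0.14, with an adjusted p of 0.0095 in edgeR), or 1.51-fold, called in Cl_1 (-0.85) and Cl_2 (-0.51) and not in Cl_3 (-0.41). tRNA-Leu-TAG-3 stood at 2331, 2176, 2543, 2458, 2550 and 2417 CPM, against 2601 and 2274 CPM in Ctrl_1. Its groups overlap, and its log2 change of -0.016 did not pass (SE 0.076, with an adjusted p of 0.884 in edgeR). Both calls on the mean were lost without replicate 2 of Ctrl_1, at 0.27 and -0.54 (edgeR adjusted p = 0.0641 and 0.0586). As shares of TAG counts, tRNA-Leu-TAG-1 held 44.9% to 52.3% in the Cl libraries and 41.1% to 42.7% in Ctrl_1, and tRNA-Leu-TAG-2 held 2.60% to 4.25% and 5.17% to 5.97%. Unlike 3 of the 4 members that fell, tRNA-Leu-TAG-2 kept its call with the anticodon factors, as did tRNA-Leu-TAG-1.

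Summed, TAG stood at 5046, 4811, 5244, 5088, 5315 and 5054 CPM in the Cl libraries, against 4506 and 4143 CPM in Ctrl_1. All 6 Cl libraries lay above both control libraries, and the total rose by 0.24 on the log2 scale (SE 0.065, with an adjusted p of 0.0175 in edgeR), or 1.18-fold. Among the 70 anticodons tested, 18.6% were called higher and 24.3% lower. The total was called in Cl_2 (0.26) and Cl_3 (0.26) and not in Cl_1 (0.19, edgeR adjusted p = 0.0872). The order of the means was Cl_3 (5184 ± 185 CPM), Cl_2 (5166 ± 111), Cl_1 (4929 ± 166) and Ctrl_1 (4325 ± 257, SD, n = 2 each), and the F test between the Cl lines gave an edgeR adjusted p of 0.784. Of nuclear counts TAG held 0.52% ± 0.014 across Cl libraries, against 0.46% ± 0.020 for Ctrl_1, and as a share of the 3 anticodons 19.9% ± 1.23 and 17.4% ± 0.76. Both shares were higher in 6 of 6 Cl libraries, with an exact permutation p of 0.0357 with libraries as units, and 0.107 after adjustment over 9 shares. The call on the total was lost without replicate 1 of Ctrl_1 (0.25, edgeR adjusted p = 0.0611) or without its replicate 2 (0.21, edgeR adjusted p = 0.0736), as it was with the libraries of each line summed (0.24, edgeR adjusted p = 0.123).

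**Figure D2:**
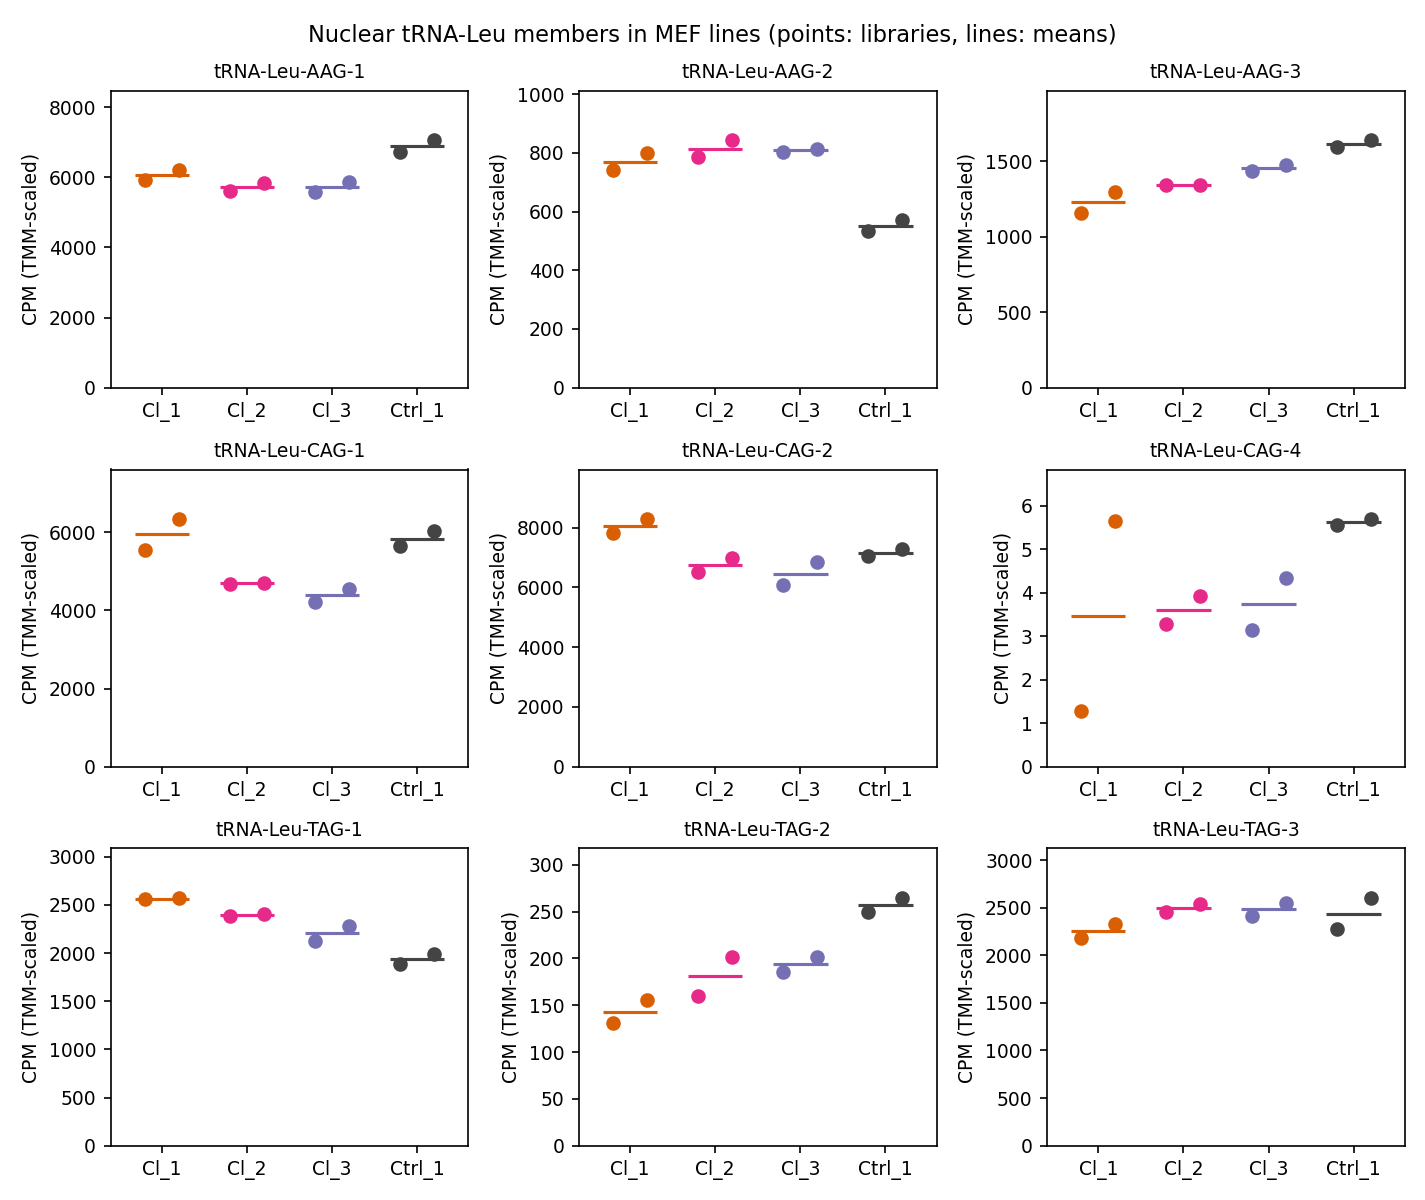
TMM-scaled CPM (y axis, from 0) of the 9 tested members in the MEF lines Cl_1, Cl_2, Cl_3 and Ctrl_1 (x axis); points are libraries and lines their means. AAG-2 and TAG-1 lie above Ctrl_1 in all 6 Cl libraries, AAG-1, AAG-3 and TAG-2 below it, and CAG-1 and CAG-2 are highest in Cl_1 among the Cl lines. How often other transcripts lie apart in this way was not counted.

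In Cl_1, 2 of 9 members (22.2%) were higher, where 14.9% of all transcripts were, and 2 (22.2%) lower, where 18.9% were. In Cl_2, 2 members (22.2%) were higher, against 25.9% of all transcripts, and 4 (44.4%) lower, against 20.4%. In Cl_3, 1 member (11.1%) was higher, against 26.4%, and 2 (22.2%) lower, against 24.4%. The largest gap to the background was thus in the lower calls of Cl_2, a difference that was not tested. Without either Ctrl_1 library 2 members were called in Cl_2, and without replicate 1 of Ctrl_1 2 were called in Cl_1. Leaving out a library of the line itself left it with 1 library, assumed to vary as the other lines do. Cl_2 then had 1 call without its replicate 1 and 2 without its replicate 2, and Cl_3 had 1 without its replicate 2. Of the 3 anticodon totals, Cl_1 had 1 called higher (11.4% of 70 anticodons) and 0 lower (12.9%), Cl_2 had 1 higher (17.1%) and 0 lower (18.6%), and Cl_3 had 1 higher (12.9%) and 0 lower (12.9%). Between the Cl lines edgeR called 0 of the 3 totals, with 1 of them (CAG) at an unadjusted p under 0.05, and 1.43% of all anticodons were called. The 3 lines share the Ctrl_1 libraries. With 1 control line, a trait of that line and a change in the Cl lines cannot be told apart. With the libraries of each line summed, 3 Cl lines against 1 control line, 0 members were called by edgeR, and 0 had an unadjusted p under 0.05. In the mean of the Cl lines, 3 members were called without replicate 1 of Ctrl_1 and 2 without its replicate 2.

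**Figure D3:**
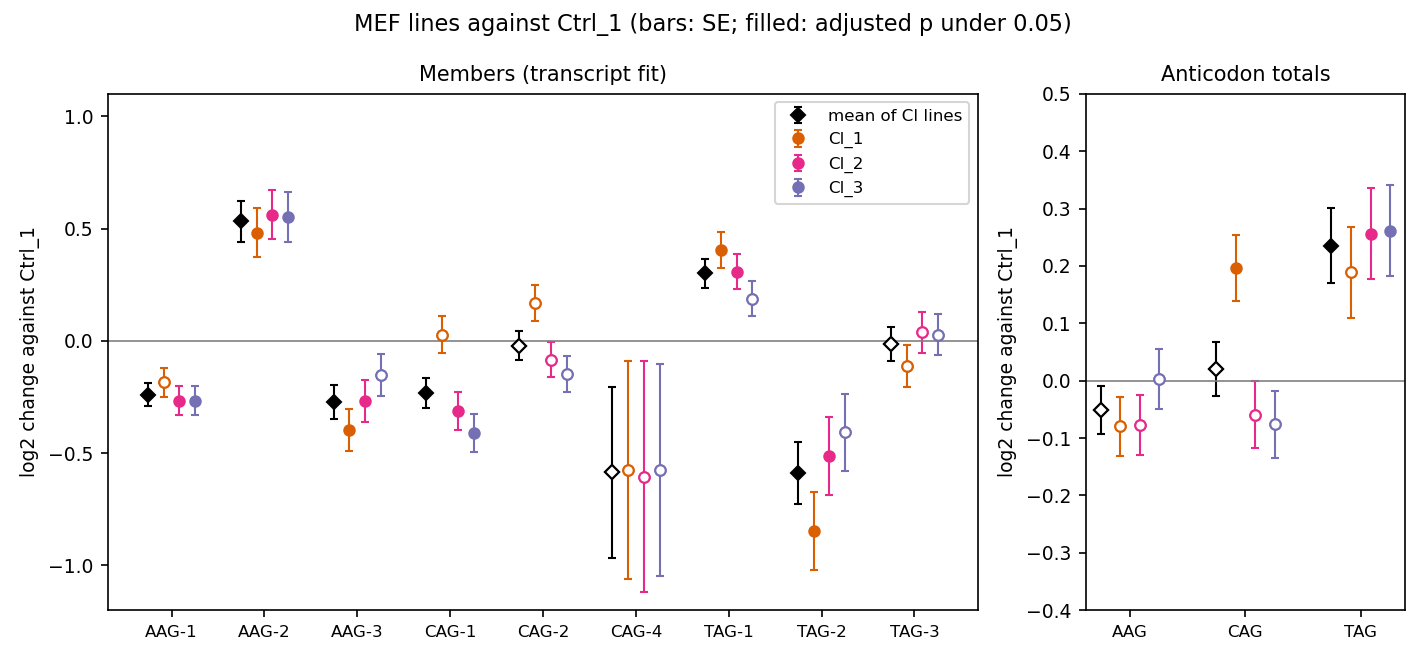
Log2 change against Ctrl_1 (y axis) of the members in the transcript fit (left) and of the anticodon totals in their own fit (right), for the 3 Cl lines and their mean; bars are SE and filled symbols passed an adjusted p of 0.05. AAG-2 is filled in all 4 contrasts, while CAG-1 is near 0 in Cl_1 and at -0.31 and -0.41 in Cl_2 and Cl_3.

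The readers of the other leucine codons gave calls in both directions in the MEFs. The CAA total, which reads TTG, rose by 0.34 on the log2 scale (SE 0.085, with an adjusted p of 0.0123 in edgeR) and the TAA total fell by 0.23 (SE 0.036, with an adjusted p of 0.00128 in edgeR). Of 6 tested transcripts with these anticodons 2 were higher and 2 lower, with a median log2 change of 0.14. The log2 ratio of the 3 CTN anticodons to the other nuclear tRNA-Leu was 0.999 ± 0.12 across Cl libraries, against 0.88 for Ctrl_1 (exact permutation p = 0.321, adjusted 0.579). Against nuclear tRNA-Ser, another family with a long variable arm, the log2 ratio was -1.14 ± 0.076 and -1.08 ± 0.018 (exact permutation p = 0.429, adjusted 0.643). Of 12 tested tRNA-Ser transcripts 4 were higher and 2 lower (median 0.13). Of 27 tested nuclear transcripts other than Leu-AAG whose anticodon begins with A, 3 were higher and 6 lower (median 0.078). Both mitochondrial leucine tRNAs were lower, at -0.63 for TAA and -0.97 for TAG (edgeR adjusted p = 0.00212 and 0.00406). All mitochondrial tRNAs together made up 2.14% to 3.01% of counts in the Cl libraries, against 3.74% and 3.41% in Ctrl_1. Whether the leucine tRNAs differed beyond this share was not tested.

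Over the 8 MEF libraries, the totals with the pattern closest to AAG were Gly-CCC and Phe-GAA, with root mean square differences of centred log2 CPM of 0.038 and 0.050. Those closest to CAG were iMet-CAT (0.086) and Gln-TTG (0.098), and those closest to TAG were Arg-TCG (0.063) and Ile-AAT (0.064). The medians over the 69 other anticodons were 0.15, 0.18 and 0.17. Around its own mean, AAG had a root mean square spread of 0.050, CAG of 0.12 and TAG of 0.11. Phe-GAA was thus no closer to AAG than a row without any change would be.

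Neither a member nor an anticodon total was called when AAV9-DdCBE hearts were set against AAV9-GFP hearts. edgeR called 0 of the 9 members and 0 of the 3 totals, where 0% of the 180 transcripts and 0% of the 70 anticodons were called. At an unadjusted p under 0.05 both counts were also 0, where 35 of the 180 transcripts passed. With DESeq2, which called 27 transcripts in all, both counts were 0 as well. Member log2 differences ran from -0.39 for tRNA-Leu-CAG-2 to 0.42 for tRNA-Leu-AAG-3. Their median was -0.25, against -0.10 over all transcripts tested.

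AAG stood at 8133, 8410, 9176 and 8037 CPM in AAV9-DdCBE mice 17, 18, 25 and 26, against 8468, 8010, 9604 and 8214 CPM in AAV9-GFP mice 5, 6, 14 and 19. The groups overlap (log2 difference -0.023, SE 0.076, with an adjusted p of 0.955 in edgeR). CAG stood at 15520, 12200, 11030 and 15730 CPM, against 15780, 15100, 9802 and 15250 CPM. Both groups span a wide range here, with mice 25 and 18 low among the AAV9-DdCBE hearts and mouse 14 low among the AAV9-GFP hearts (log2 difference -0.038, SE 0.18, with an adjusted p of 0.975 in edgeR). TAG stood at 5102, 5615, 6445 and 5782 CPM, against 6065, 5657, 6563 and 5732 CPM. The groups overlap as well (log2 difference -0.066, SE 0.086, with an adjusted p of 0.934 in edgeR).

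As shares of nuclear tRNA counts, the totals were nearly level. AAG held 1.509% ± 0.11 in AAV9-DdCBE hearts and 1.502% ± 0.15 in AAV9-GFP hearts, CAG 2.43% ± 0.39 and 2.44% ± 0.45, and TAG 1.02% ± 0.095 and 1.05% ± 0.087 (SD, n = 4 each). The exact two-sided permutation tests gave p = 0.943, 0.971 and 0.657, and 1.0 after adjustment over 9 shares, with 0.0286 the smallest that 70 splits allow. Without mouse 14 the CAG difference was -0.24 percentage points (exact permutation p = 0.551 after adjustment), against -0.0098 with it. The log2 ratio to the other nuclear tRNA-Leu was 1.53 ± 0.080 in AAV9-DdCBE hearts and 1.51 ± 0.11 in AAV9-GFP hearts, and that to nuclear tRNA-Ser was -0.13 ± 0.044 and -0.096 ± 0.14. Adjusted exact permutation p-values were 1.0 for both. In this comparison edgeR also called 0 of 6 other nuclear tRNA-Leu transcripts, 0 of 12 tRNA-Ser transcripts, 0 of 27 with A as first anticodon base and 0 of 2 mitochondrial tRNA-Leu. Of these, 1, 1, 9 and 0 had an unadjusted p under 0.05, where 35 of all 180 transcripts did.

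**Figure D4:**
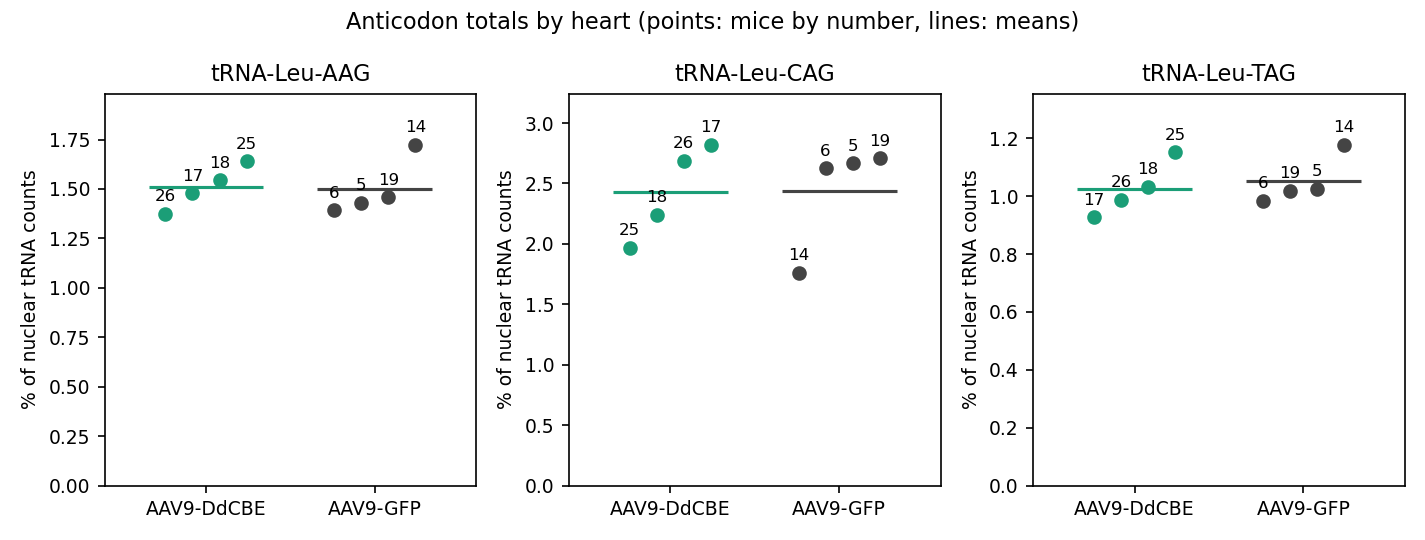
Share of nuclear tRNA counts (y axis, percent, from 0) held by each anticodon in AAV9-DdCBE and AAV9-GFP hearts (x axis); points are mice, labelled by number, and lines are means. The groups overlap for all 3 anticodons, and mouse 14 is the lowest for CAG at 1.76% and the highest for AAG and TAG.

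Mouse 14 set the spread of the AAV9-GFP hearts for the CTG readers. tRNA-Leu-CAG-2 stood at 5408, 5321, 6326 and 9143 CPM in AAV9-DdCBE mice 17, 18, 25 and 26, against 9961, 9486, 5495 and 9353 CPM in AAV9-GFP mice 5, 6, 14 and 19. In mice 17, 18, 25 and 14 the level was low, and in mouse 26 it was near that of the other 3 AAV9-GFP hearts. The log2 difference was -0.39 (SE 0.23, with an adjusted p of 0.323 in edgeR), and -0.55 without mouse 14 (edgeR adjusted p = 0.120). tRNA-Leu-CAG-1 had 4891 to 7472 CPM in AAV9-DdCBE hearts and 4521 to 7399 CPM in AAV9-GFP hearts, and tRNA-Leu-CAG-4 31.7 to 48.8 and 23.9 to 55.5 CPM. Mouse 14 was the lowest AAV9-GFP heart for both.

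Among the AAV9-DdCBE hearts, mice 17 and 18, labelled 10X, stood apart in the make-up of AAG and CAG. tRNA-Leu-AAG-3 stood at 988 and 962 CPM in mice 17 and 18, at 583 and 546 CPM in mice 25 and 26, and at 531, 518, 721 and 525 CPM in AAV9-GFP mice 5, 6, 14 and 19. Both 10X hearts lay above every other heart, and how many of all transcripts set them apart in this way was not counted. It held 15.8% and 12.7% of AAG counts in mice 17 and 18 and 5.80% to 7.33% in the AAV9-GFP hearts. A further fit split the AAV9-DdCBE hearts by label, a split made with earlier results of these data known. There tRNA-Leu-AAG-3 was higher in the 10X hearts than in AAV9-GFP by 0.77 on the log2 scale (SE 0.19, with an adjusted p of 0.0131 in edgeR), or 1.70-fold. In that comparison 1 of the 9 members was higher and 4 lower, where 23.9% of the 180 transcripts were called higher and 27.8% lower. The median log2 difference of all transcripts was -0.23, and that of the members -0.52. Relative to the median of all transcripts, tRNA-Leu-AAG-3 was 0.99 higher. It was called in 13 of 14 alternatives, the exception being the fit without mouse 17 (0.75, edgeR adjusted p = 0.0726).

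The 4 members called lower in the 10X hearts were among the abundant ones. tRNA-Leu-AAG-1 stood at 4686, 6008, 8058 and 7340 CPM in AAV9-DdCBE mice 17, 18, 25 and 26, against 7982, 7619, 8316 and 7824 CPM in AAV9-GFP mice 5, 6, 14 and 19. Mice 17 and 18 were below all others (log2 difference of the 10X hearts -0.57, SE 0.15, with an adjusted p of 0.0167 in edgeR). For tRNA-Leu-CAG-2, given above, mouse 14 overlapped the 10X hearts (-0.68, SE 0.24, with an adjusted p of 0.0453 in edgeR). tRNA-Leu-TAG-1 stood at 1388, 1743, 2420 and 2182 CPM, against 2276, 2196, 2470 and 2282 CPM. The 10X hearts were again the lowest (-0.56, SE 0.15, with an adjusted p of 0.0171 in edgeR). tRNA-Leu-TAG-3 stood at 1558, 2264, 2780 and 2610 CPM, against 3040, 2792, 2697 and 2608 CPM, with mouse 17 well below the rest (-0.54, SE 0.18, with an adjusted p of 0.0345 in edgeR).

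Without mouse 17 the 4 differences were smaller or of like size and none was called by edgeR: -0.40 for tRNA-Leu-AAG-1, -0.69 for tRNA-Leu-CAG-2, -0.40 for tRNA-Leu-TAG-1 and -0.30 for tRNA-Leu-TAG-3 (edgeR adjusted p = 0.0524, 0.196, 0.0726 and 0.157). Without mouse 18 they were, in the same order, -0.75, -0.66, -0.72 and -0.83, of which only tRNA-Leu-CAG-2 was not called (edgeR adjusted p = 0.166). The value of tRNA-Leu-TAG-3 thus depended most on which of the 10X hearts was kept. Without mouse 14 all 4 were called, at -0.55, -0.84, -0.52 and -0.56, and tRNA-Leu-CAG-2 had an edgeR adjusted p of 0.000751. Leaving out mouse 5, 6, 25 or 26 in turn moved tRNA-Leu-CAG-2 to between -0.50 and -0.42 and tRNA-Leu-TAG-3 to between -0.37 and -0.32, with neither called.

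Relative to the median of all transcripts the differences over all hearts were -0.34, -0.45, -0.33 and -0.31, in that order. They depend on the scaling and on single hearts: of 14 alternatives, 5 called tRNA-Leu-AAG-1, 1 called tRNA-Leu-CAG-2, 3 called tRNA-Leu-TAG-1 and 2 called tRNA-Leu-TAG-3 lower. With DESeq2 1 member was higher and 1 lower, with library totals in place of TMM factors 1 and 0, and with the anticodon factors 1 and 0. Over all transcripts the split was 43 higher and 50 lower here, 52 and 23 with DESeq2, 48 and 9 with library totals, and 57 and 10 with the anticodon factors, where the median of all transcripts was 0.15. Without mouse 17 edgeR called 0 members, with 3 at an unadjusted p under 0.05, and without mouse 5, mouse 6, mouse 25 or mouse 26 in turn the 1 member called was higher. Without mouse 18 1 was higher and 3 lower, and without mouse 19 1 higher and 2 lower. Without mouse 14 1 was higher and 6 lower, tRNA-Leu-CAG-4 and tRNA-Leu-TAG-2 being the added ones. Mouse 17 also had the highest share of mitochondrial tRNA, 59.9% of counts, and mouse 18 held 44.46%. Mice 25 and 26 held 39.19% and 38.85%, and the AAV9-GFP hearts 37.4% to 43.3%. The part of that share in these differences was not tested.

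Summed per anticodon, edgeR called 0 of the 3 totals in the 10X hearts (0% of 70 anticodons), as did DESeq2, and 0 had an unadjusted p under 0.05. Their log2 differences were -0.052 for AAG, -0.013 for CAG and -0.16 for TAG (SE 0.094, 0.23 and 0.090, edgeR adjusted p = 0.859, 0.971 and 0.370). These values are on the anticodon scale, on which the members' median is not that of the transcript fit. Within CAG, tRNA-Leu-CAG-1 held 54.5% and 51.3% of counts in mice 17 and 18, and 43.5% and 44.8% in mice 25 and 26, against 41.1% to 45.0% in the AAV9-GFP hearts. The members not called here were tRNA-Leu-AAG-2 (-0.19), tRNA-Leu-CAG-1 (-0.091), tRNA-Leu-CAG-4 (-0.52) and tRNA-Leu-TAG-2 (-0.41). Of the lists set beside them, 1 of 6 other nuclear tRNA-Leu was higher and 2 lower, 1 of 12 tRNA-Ser higher and 4 lower, and 10 of 27 with A as first anticodon base higher and 8 lower. Of the 2 mitochondrial tRNA-Leu edgeR called 0, with 1 at an unadjusted p under 0.05, where 109 of all 180 transcripts were. The label 10X occurs only among AAV9-DdCBE hearts, so label and editor cannot be told apart in this comparison.

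**Figure D5:**
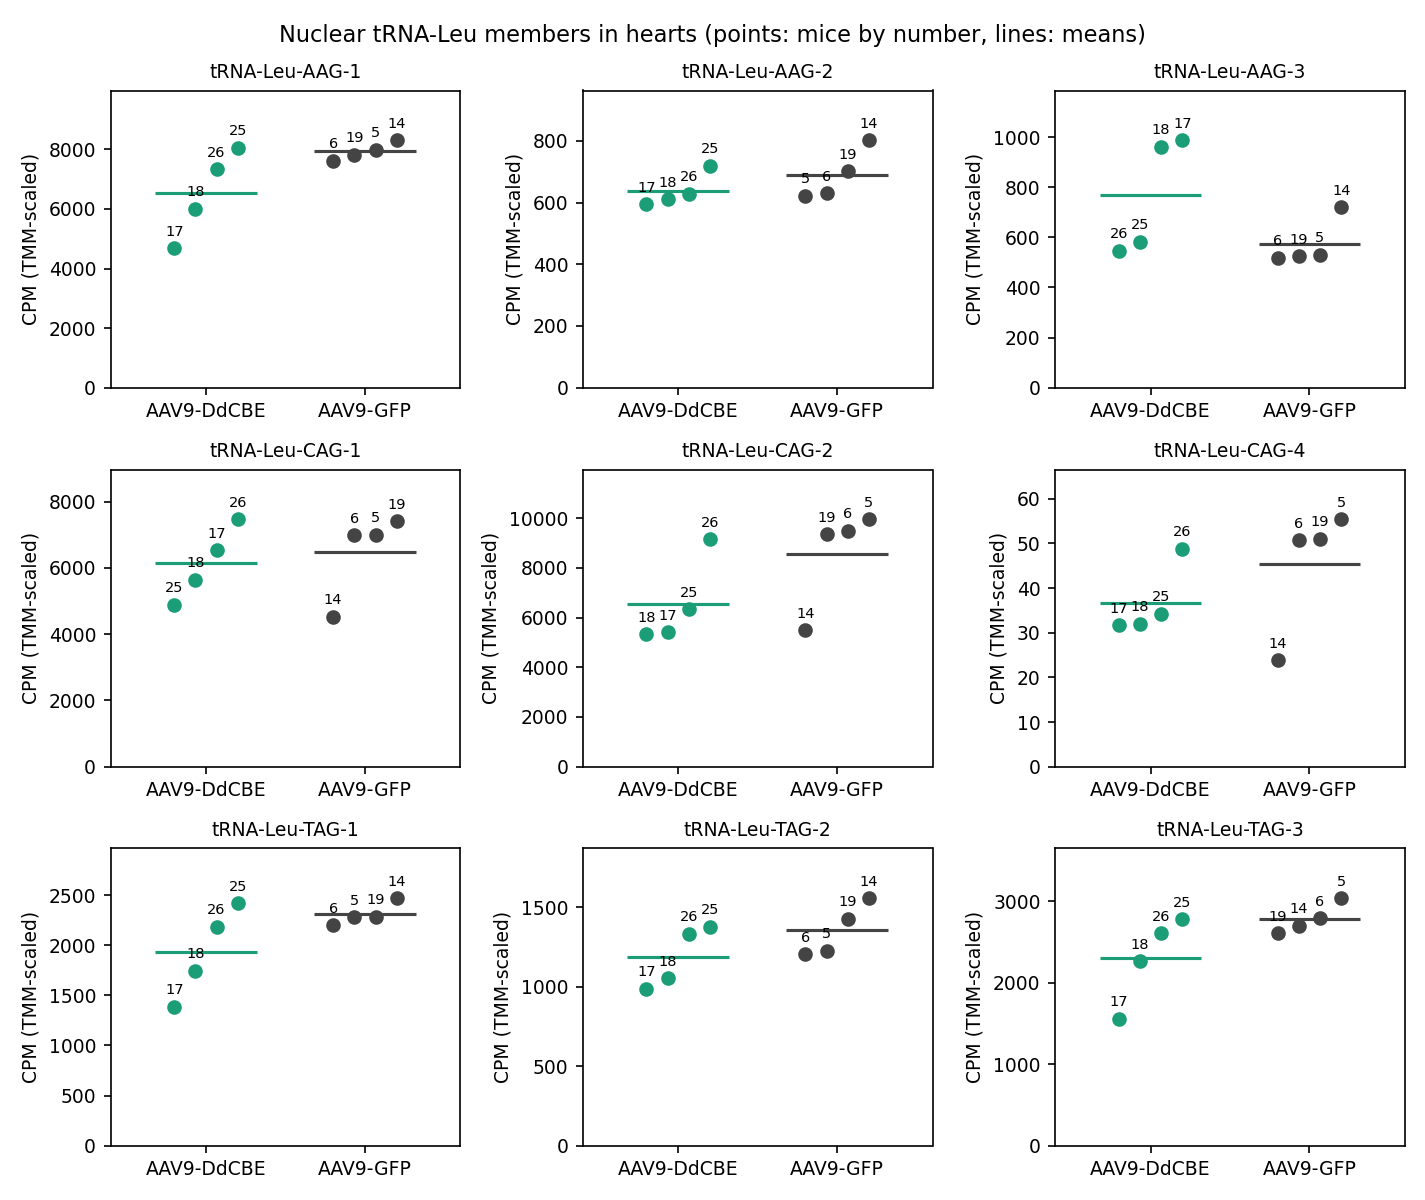
TMM-scaled CPM (y axis, from 0) of the 9 tested members in AAV9-DdCBE and AAV9-GFP hearts (x axis); points are mice, labelled by number, and lines are means. Mice 17 and 18 are the highest 2 hearts for AAG-3 and the lowest 2 for AAG-1 and TAG-1, and mouse 14 is the lowest AAV9-GFP heart for CAG-1, CAG-2 and CAG-4. How often these mice lie apart in other transcripts was not counted.

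Over the 8 hearts, the totals with the pattern closest to CAG were Leu-CAA, a reader of the leucine codon TTG, and Glu-CTC, with root mean square differences of centred log2 CPM of 0.051 and 0.075. Those closest to AAG were Gln-CTG (0.031) and Arg-ACG (0.043), and those closest to TAG were Ile-AAT (0.041) and Arg-ACG (0.060). The medians over the 69 other anticodons were 0.18 for AAG, 0.33 for CAG and 0.18 for TAG. Around its own mean, AAG had a root mean square spread of 0.089, CAG of 0.25 and TAG of 0.11.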

How the data were processed

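The authors deposited raw read counts per tRNA transcript as whole numbers in each of 2 tables. Per the labels' protocols, RNA was extracted in mild acid, oxidised and beta-eliminated before mim-tRNAseq libraries were sequenced; per the submitters' processing notes, cutadapt 3.5 and build mm39 were used. The sources used here do not name the aligner or counter. No sequences were used, and charging was not analysed here.

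Columns and groups came from sample titles. Counts of all transcripts, and separately sums per genome and anticodon, were fitted per table in R 4.3.3 with edgeR 4.0.16 (TMM, filterByExpr with minimum count 10 and total 15, glmQLFTest, Benjamini-Hochberg, threshold 0.05). The filter used the line or treatment as group. SE is the log2 change over the square root of F. The split of hearts by label was made with earlier results known. Shares were compared by exact permutation over libraries. In all 16 replicate pairs the counts were further apart than sampling noise gives (chi-square over degrees of freedom 93.9 to 1780). Alternatives were DESeq2 1.42.0, library totals, nuclear rows only, no filter, each library left out, the passage number as a block, summed lines and, added after seeing the data, another filter and the anticodon table's factors. The pipeline was tested on simulated data.

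The members and the lists (other nuclear tRNA-Leu, nuclear tRNA-Ser, anticodons beginning with A, mitochondrial tRNA-Leu) were chosen with earlier results of these data known. Every member is accounted for. Per-library values are given for each total, the most counted member of each anticodon, and each member past the threshold. Likeness was the root mean square difference of centred log2 CPM of anticodon totals.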

Additional observations from a re-analysis of the deposited data

Results flagged for a closer look

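The AAV9-GFP heart of mouse 14 lay far from the other 3 AAV9-GFP hearts in 11 values. Its CAG total was 9802 CPM, against 15100 to 15780 in the others, and CAG held 1.76% of nuclear tRNA counts, against 2.63% to 2.71%. tRNA-Leu-CAG-1 was at 4521 CPM, tRNA-Leu-CAG-2 at 5495 and tRNA-Leu-CAG-4 at 23.9, each below the other 3. tRNA-Leu-AAG-3 was above them at 721 CPM and at 7.33% of AAG counts. Of the 3 anticodons, AAG held 37.0%, CAG 37.7% and TAG 25.3% in this heart, and the log2 ratio to the other nuclear tRNA-Leu was 1.67, against 1.43 to 1.47. Mouse 14 had the lowest total of the hearts, 1540287 counts, and the part of depth in these values was not tested. Among the AAV9-DdCBE hearts, mouse 26 stood above the other 3 for tRNA-Leu-CAG-4, at 48.8 CPM against 31.7 to 34.2. By chance about 1 in 20 groups gives such a value, and 12 of 64 groups did; the values of 1 heart are not independent of each other.

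Between the Cl lines, tRNA-Leu-CAG-1 and tRNA-Leu-CAG-2 differed by the F test, with Cl_3 against Cl_1 at -0.44 and -0.32 on the log2 scale. These were 2 of the 9 members tested, where 24.4% of all 201 transcripts were called. With library totals in place of TMM factors tRNA-Leu-CAG-2 was not called (edgeR adjusted p = 0.0884). The CAG total did not pass (edgeR adjusted p = 0.0631).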

How the results depend on the processing

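Of 766 values recomputed under an alternative, 558 kept their direction and their side of the threshold (or moved little), 82 lost a call, 4 gained one, 32 counts moved by over 1.5 times and 90 changed sign; the changes of sign were in values below the threshold. The cause was not tested.

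Members called (6 in the mean of the Cl lines) numbered 0 in the fit on summed lines, 4 with library totals, 5 without the filter, and 3 with the anticodon factors, added after seeing the data. Cl_2 had 3 without the filter or with library totals, and the test between lines 1 with library totals. In the 10X hearts (5) there were 2 with DESeq2 or nuclear rows only, and 1 with library totals, no filter, the filter by 4 levels or the anticodon factors. Leaving out 1 library gave 2 to 7 in the mean, 2 to 4 in Cl_1, 1 to 6 in Cl_2, 1 to 3 in Cl_3, 0 to 2 between lines, 0 in the hearts and 0 to 7 in the 10X hearts. With the passage number as a block, 6 members were called in the mean (5 in Cl_1, 5 in Cl_2, 4 in Cl_3, 2 between lines). In that fit tRNA-Leu-AAG-2 was at 0.53 and the TAG total at 0.24. The differences in log2 CPM between replicates 1 and 2 of a line correlated at 0.070 to 0.25 across 6 pairs of lines. The labels give only a shared number, so the pairing is not established. Over all transcripts, the mean of the Cl lines gave 97 calls, 9 with lines summed, and 67 higher and 31 lower with the anticodon factors. Cl_2 gave 52 higher and 41 lower, 54 and 25 with library totals, and Cl_3 53 and 49, 70 and 30 with library totals. The 10X hearts gave 49 and 18 with nuclear rows only, 61 and 11 without the filter, and 55 and 12 with the filter by 4 levels.

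Log2 values in the MEFs were as follows. The AAG total passed with nuclear rows only (-0.11), and the TAG total did not with lines summed (0.24). The CAG total was -0.037 with nuclear rows only and -0.011 with library totals. tRNA-Leu-CAG-2 was 0.081 with library totals and 0.11 with the anticodon factors, and tRNA-Leu-TAG-3 0.087, 0.12 and, with lines summed, 0.0078. Leaving out 1 library gave ranges of 0.19 to 0.25 for the TAG total, -0.042 to 0.062 for the CAG total, -0.054 to 0.013 for tRNA-Leu-CAG-2 and -0.10 to 0.070 for tRNA-Leu-TAG-3.

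In the hearts tRNA-Leu-CAG-1 was 0.032 with DESeq2, 0.0043 with library totals, 0.069 with nuclear rows only and 0.040 without the filter. tRNA-Leu-AAG-2 was 0.025 with nuclear rows only and 0.0020 without the filter, and the AAG total 0.0033 with nuclear rows only. Leaving out 1 heart gave -0.22 to 0.13 for tRNA-Leu-CAG-1, -0.10 to 0.0046 for tRNA-Leu-AAG-2, -0.085 to 0.036 for the AAG total, -0.17 to 0.051 for CAG and -0.13 to 0.011 for TAG. In the 10X hearts tRNA-Leu-CAG-1 was 0.11 with DESeq2, 0.0028 with library totals, 0.20 with nuclear rows only, 0.13 without the filter, 0.10 with the filter by 4 levels and 0.29 with the anticodon factors. tRNA-Leu-AAG-2 was 0.088 with nuclear rows only, 0.028 without the filter and 0.17 with the anticodon factors. With nuclear rows only the AAG total was 0.00067 and the CAG total 0.044. Ranges without 1 heart were -0.23 to 0.12 for tRNA-Leu-CAG-1, -0.17 to 0.0071 for the AAG total and -0.19 to 0.15 for the CAG total.

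For shares, given as differences in percentage points, the 3 anticodons in the MEFs were at 0.016 as a share of all counts, with -0.044 to 0.015 without 1 library, and AAG in the hearts at -0.072 as a share of all counts. Without 1 library, CAG in the MEFs ran from -0.054 to 0.011 of nuclear counts and from -1.48 to 0.34 of the 3 anticodons. In the hearts, shares of nuclear counts ran from -0.14 to 0.038 for the 3 together, -0.036 to 0.081 for AAG, -0.24 to 0.14 for CAG and -0.069 to 0.015 for TAG. Shares of the 3 ran from -1.04 to 2.52 for AAG, -3.48 to 2.62 for CAG and -1.57 to 0.96 for TAG. Log2 ratios ran from -0.0051 to 0.075 against other nuclear tRNA-Leu and -0.099 to 0.0087 against tRNA-Ser. With the 4 lines as units, adjusted exact permutation p-values for AAG and TAG were 0.75, where 4 splits allow no unadjusted p under 0.25, so no share could pass.

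There is 1 control line, and each Cl line has 2 libraries. In the hearts, 4 against 4 and wide spread in CAG (SE 0.18 for its total) limit what could be detected. The transcript tRNA-Leu-CAG-3, removed by the filter, was not called in any comparison when the filter was dropped.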
